A study of Mus musculus with 8 samples.

Results

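The casein genes are the 5 genes Csn1s1, Csn2, Csn1s2a, Csn1s2b and Csn3, which were taken by name from the 27998 genes of a single-cell RNA-seq table of mouse mammary epithelium. The cells came from 8 C57BL/6N females, 2 at each of 4 stages. These were nulliparous mice of 8 weeks (NP), mice at gestation day 14.5 (G), mice at lactation day 6 (L) and mice 11 days after natural weaning, in post-involution glands (PI). All mice were of the same strain, and the labels name no transgene or drug; the age is given for the NP mice only. EpCAM+ cells free of the blood, immune and endothelial markers Ter119, CD45 and CD31 were sorted from each gland and sequenced by a droplet method that reads the 3' end of each transcript and counts unique molecular identifiers (UMIs). Per the study's methods, both NP mice and PI2 were in estrus and PI1 was in diestrus.

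Caseins are the main proteins of milk and carry calcium and phosphate to the young. Csn1s1 (alpha-s1 casein), Csn2 (beta casein), Csn1s2a and Csn1s2b (alpha-s2-type caseins) are calcium-sensitive: kinases of the secretory pathway phosphorylate them, and the phosphates bind calcium phosphate in a micelle. Csn3 (kappa casein) is not of that family and coats the micelle, which keeps it in solution. In alveolar cells, prolactin acts through its receptor and JAK2 on the transcription factor STAT5, which works with glucocorticoid receptor, C/EBP, ELF5 and nuclear factor I proteins on casein promoters and enhancers.

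The 5 genes lay together on chromosome 5, within 266458 bp (GRCm38, GENCODE annotation): Csn1s1 at chr5:87666208-87682578 on the + strand, Csn2 at chr5:87692624-87699630 on the − strand, Csn1s2a at chr5:87774567-87788797, Csn1s2b at chr5:87808082-87824426 and Csn3 at chr5:87925579-87932665, the last 3 on the + strand. The gaps between neighbouring caseins were 10045, 74936, 19284 and 101152 bp in that order. Csn3 lay wholly within the antisense gene 1700066N21Rik (chr5:87908579-87979351), which had 0 UMIs in every sum of cells. The annotated transcripts of any pair of caseins shared 0 words of 50 bases, so reads of 1 casein could be told from those of the others. The counting's use of strand is not given in the sources used here.

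The 250 bases before the RefSeq start (GRCm38.p6) were held for Csn1s1, Csn2 and Csn1s2a, 3 of the 5 genes. None were held for Csn1s2b or Csn3, so these 3 windows alone are shown. They are printed 5' to 3' on the strand of the gene, with matches to TTCNNNGAA, the core of a STAT5 site, in capitals.

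Csn1s1, chr5:87665958-87666207, + strand: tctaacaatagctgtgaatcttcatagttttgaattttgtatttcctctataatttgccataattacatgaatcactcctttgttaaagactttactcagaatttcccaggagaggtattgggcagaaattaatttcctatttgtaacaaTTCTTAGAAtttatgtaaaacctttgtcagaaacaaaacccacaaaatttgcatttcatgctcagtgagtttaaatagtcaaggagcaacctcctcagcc

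Csn2, chr5:87699426-87699675, − strand: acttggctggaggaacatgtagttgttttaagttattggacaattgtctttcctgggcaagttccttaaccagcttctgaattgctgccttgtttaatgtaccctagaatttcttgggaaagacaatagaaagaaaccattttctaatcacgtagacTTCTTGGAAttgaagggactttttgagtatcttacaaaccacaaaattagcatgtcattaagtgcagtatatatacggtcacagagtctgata

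Csn1s2a, chr5:87774200-87774449, + strand: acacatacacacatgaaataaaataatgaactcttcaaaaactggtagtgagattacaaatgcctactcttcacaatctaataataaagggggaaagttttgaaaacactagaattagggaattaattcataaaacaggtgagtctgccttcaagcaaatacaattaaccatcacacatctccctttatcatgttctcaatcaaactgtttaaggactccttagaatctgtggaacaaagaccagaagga

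TTCNNNGAA reads the same on both strands. The Csn1s1 window held TTCTTAGAA at 100 to 92 bases before the start and the Csn2 window TTCTTGGAA at 93 to 85 bases before it. The motif was in 2306 of 32851 RefSeq promoter windows of this length, or 7.02%. The Csn1s2a window held no match. The annotations place this start differently: the GENCODE start of Csn1s2a lay 117 bases downstream of the RefSeq start, and a TTCTTAGAA that began 97 bases before the GENCODE start lay just outside the printed window. Csn1s1 had the same start in both annotations, and the GENCODE start of Csn2 lay 205 bases upstream of the RefSeq one, so that its printed match lies downstream of the GENCODE start. A match is a description of these letters only.

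The 8 libraries held 13785920 to 35711533 UMIs, and the median cell held 3770 to 9624. Of 25806 barcodes, 25009 passed the authors' quality control; 791 had a barcode that another library also held, and 0 of these passed. Cells carried the authors' cluster labels (C1 to C20), and most clusters came from 1 stage. Luminal progenitors were C6 in NP and C7 in PI; hormone-sensing progenitors C2 in NP and C1 in PI; differentiated hormone-sensing cells C4 in NP and C3 in PI; alveolar progenitors C10 in G and C11 in L; differentiated alveolar cells C8 in G and C9 in L; and basal cells C12 in NP and PI, C13 in G and C14 in L, where the authors call them myoepithelial. The names were checked against summed marker levels. The summed alveolar markers Wap, Lalba and Glycam1 stood at 98474 and 134005 in CPM (counts scaled to 1e6 UMIs per sum) in C9 of mice L1 and L2, against 158 and 82.6 CPM in C7. The summed basal markers Krt5, Krt14, Acta2 and Oxtr stood at 33197 and 29815 CPM in C14. They were also at 4785 and 3422 CPM in C11 and 2067 and 903 CPM in C9, against 162 and 221 CPM in C10 and 131 and 123 CPM in C8. The luminal markers Krt8 and Krt18 summed to 4498 and 7702 CPM in C11 and 1195 and 2392 CPM in C9, so in L1 the basal sum was above the luminal sum in both clusters. The part of basal cells or their RNA in the C9 and C11 values was not tested.

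Casein RNA was a small share of the NP glands and a large one in pregnancy. Caseins made up 0.0156% and 0.0212% of all UMIs of the NP mice, 7.20% and 4.001% of the G mice, 1.16% and 1.45% of the L mice, and 0.849% and 0.521% of the PI mice. The share in L rested on few cells. Cluster C9 was 0.732% and 1.31% of the cells of L1 and L2 (42 and 47 cells), yet held 64.0% and 72.8% of the casein UMIs. In G, cluster C8 (1926 and 1818 cells) held 96.3% and 92.9% of them. In PI, luminal progenitors held 88.4% and 75.2% of casein UMIs and C1 held 11.3% and 23.7%. In NP, luminal progenitors held 62.8% and 70.5%. A share of a whole library mixes cell numbers with levels, so all levels below are given within clusters, from UMIs summed over the cells of 1 mouse.

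**Figure D1:**
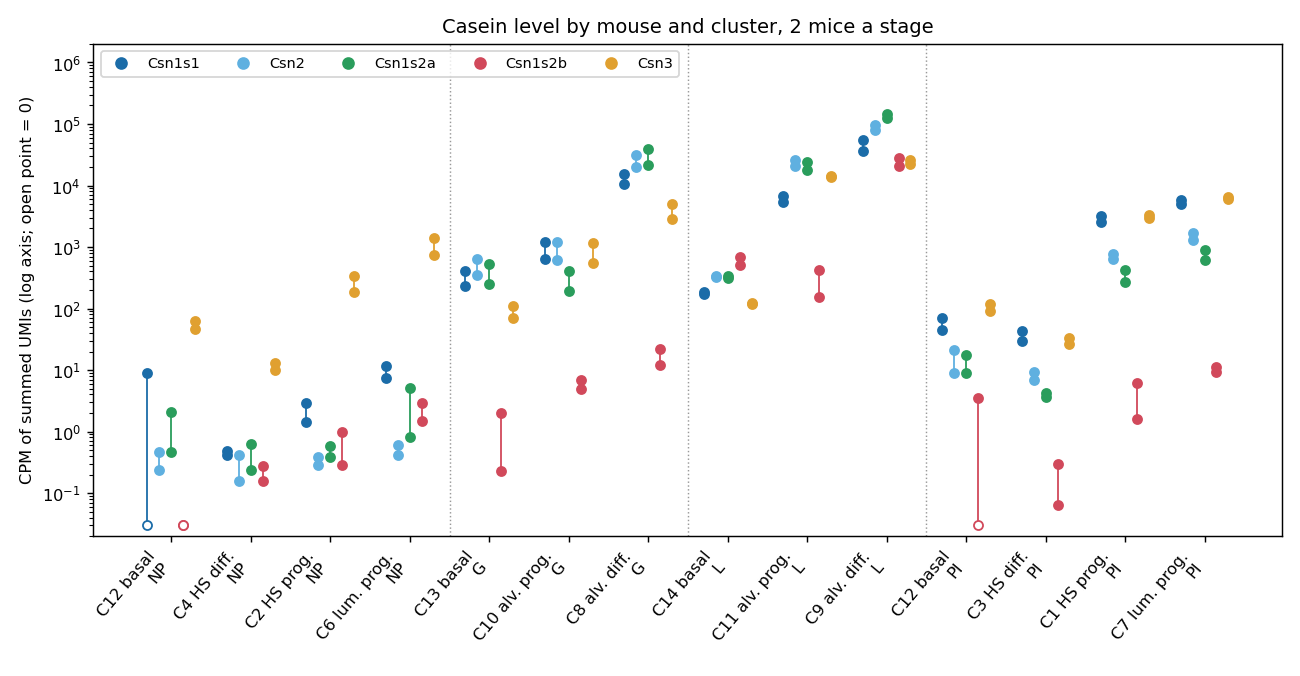
Level of each casein (CPM, log axis) in the sums of each mouse and cluster, with 1 point per mouse. Open points mark a level of 0. All 5 caseins were highest in C9 of lactation; Csn3 was the casein present in luminal progenitors of NP mice, and Csn1s2b stood above the other lactation clusters in C9 and C14.

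Beta casein and the alpha caseins Csn1s1 and Csn1s2a had the same 4 clusters at the top by mean level, in the order C9, C8, C11 and C7. Values of different genes come from 3' tags, which do not scale with transcript length, so they are set side by side in UMIs. Csn2 stood at 96913 and 80191 CPM in C9 of L1 and L2, at 31078 and 20282 CPM in C8 of G1 and G2, at 25702 and 20408 CPM in C11, and at a mean of 1490 CPM in C7 and 705 CPM in C1. In C6 of the NP mice it was at a mean of 0.509 CPM. C8 and C11 overlapped for Csn2, and the other steps from C9 to C7 lay apart. Csn1s2a, the most abundant casein of C8 and C9, stood at 143957 and 123645 CPM in C9, 39297 and 21270 CPM in C8, and 24238 and 18156 CPM in C11. C8 and C11 again overlapped, and C7 followed at a mean of 758 CPM. Csn1s1 stood at 54407 and 36182 CPM in C9 and at 15128 and 10458 CPM in C8. Here C11 (6647 and 5473 CPM) and C7 (4939 and 5908 CPM) overlapped, so a luminal progenitor of the post-involution gland was at the level of a lactating alveolar progenitor for this gene alone among those 3.

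Csn3 had another order. The kappa casein stood at 25935 and 22692 CPM in C9, 14399 and 13733 CPM in C11, 6626 and 6106 CPM in C7, 4958 and 2836 CPM in C8 and 3257 and 2961 CPM in C1. C7 of the post-involution gland thus lay above C8 of the pregnant gland, whose mice overlapped with C1. It was also the casein of the nulliparous gland: C6 stood at 743 and 1413 CPM, overlapping with C10 of pregnancy (1182 and 553 CPM), and C2 at 187 and 332 CPM. In NP basal cells Csn3 was at 61.8 and 46.4 CPM, and in C4 at 13.1 and 9.93 CPM. Cells thinned to 1000 UMIs each, with no cell left out, gave a Csn3 UMI in 38.4% of C6 cells of NP1 (exact 95% interval 33.5 to 43.6) and 56.6% of those of NP2 (51.0 to 62.2). In NP basal cells, which make no milk, the share was 1.59% (0.688 to 3.10) and 1.77% (0.578 to 4.09). The median depth before thinning was 7767.5 and 6597 UMIs in C6 and 6046 and 6302.5 UMIs in the basal cells. Intervals here and below cover counting error only.

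Csn1s2b was a casein of lactation. It stood at 27852 and 20487 CPM in C9, then at 513 and 679 CPM in C14, the myoepithelial cluster, and at 426 and 153 CPM in C11. C11 overlapped with the immune cluster C17, at 246 and 136 CPM. In pregnancy C8 reached 21.7 and 11.9 CPM, where Csn1s2a, its neighbour on the chromosome, stood at 39297 and 21270 CPM. In C7 it was at 11.1 and 9.29 CPM, and in C6 at 1.51 and 2.90 CPM.

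Free RNA from burst cells can give casein UMIs in cells that make no milk, so each level is set beside the basal cells of the same mouse. The casein sum of basal cells was 73.1 and 47.3 CPM for the NP mice and 149 and 211 CPM for the PI mice. It was 1679 and 909 CPM during gestation and 1464 and 1638 CPM during lactation. In UMIs per cell, the casein sum of C9 was 713 and 510 times that of the basal cells, C8 98.3 and 98.8 times, C7 199 and 94.4 times, and C1 197 and 85.1 times. C11 stood at 81.5 and 63.1 times, and C10 at 4.65 and 3.80 times. The basal casein sum of PI1 rests on 17 UMIs in 28 cells (95% interval 86.6 to 238 CPM). That of PI2 rests on 66 UMIs in 59 cells (163 to 269 CPM), so the multiples of the PI mice are rough. Csn3 in C6 was 12.7 and 29.9 times the basal value. Differentiated hormone-sensing cells did not exceed it: C3 of the PI mice stood at 0.987 and 0.464 times and C4 of the NP mice at 0.299 and 0.379 times the basal value for the casein sum. The casein sum per cell was 0.862 and 0.898 times the basal value in C5 of the G mice. In C17 to C19 of the G and L mice it was 0.340 to 1.81 times, highest in C19 of G2. C17 to C19 held 0.296 casein UMIs per cell in PI2, and 0.0938 and 0.101 (3 and 7 UMIs) in the NP mice. Means in the same unit were 0.559 for C3 of PI and 0.162 for C4 of NP. In CPM, C3 stood at 74.1 to 83.1, against 72.4 in C17 to C19 of PI2. C4 of NP stood at 11.6 to 14.1 CPM, against 16.0 and 16.5. The part of free RNA in C3 and C4 was not tested. Csn1s2b in C14 is described on its own below.

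The makeup of the casein RNA differed between the cell types. It was computed as the share of each gene among all casein UMIs of a sum, which does not depend on library size. In C6, Csn3 was 98.3% ± 1.19 of casein UMIs (SD, n = 2, as for all shares that follow). In C7, Csn3 was 45.5% ± 5.13, Csn1s1 38.5% ± 2.75, Csn2 10.6% ± 1.37 and Csn1s2a 5.37% ± 1.03. The hormone-sensing progenitors C1 of the same mice had 44.4% ± 5.34 Csn3 and 40.6% ± 3.42 Csn1s1. Their markers Esr1, Pgr and Prlr summed to 1466 and 1776 CPM in C1, against 88.3 and 112 CPM in C7, and the luminal progenitor markers Aldh1a3, Kit and Cd14 to 724 and 431 CPM in C1, against 1323 and 914 CPM in C7. A part of C7 cells or their RNA in the C1 values was not tested.

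Differentiated alveolar cells had another order. In C8, Csn1s2a was 41.1% ± 3.29, Csn2 35.7% ± 1.86, Csn1s1 17.9% ± 1.66 and Csn3 5.32% ± 0.219 of casein UMIs. In C9 the shares were 42.5% ± 1.71 for Csn1s2a, 28.0% ± 0.391 for Csn2, 14.2% ± 1.99 for Csn1s1, 7.72% ± 0.412 for Csn3 and 7.61% ± 0.527 for Csn1s2b. Alveolar progenitors had other shares. Csn1s1, Csn2 and Csn3 had 31.4% ± 1.23, 29.9% ± 0.314 and 28.6% ± 1.38 in C10, with Csn1s2a at 9.93% ± 0.220, and in C11 Csn2 and Csn1s2a led with 35.6% ± 0.536 and 32.6% ± 1.84, followed by Csn3 with 21.9% ± 2.51 and Csn1s1 with 9.38% ± 0.0998. The number of Csn3 UMIs per Csn1s1 UMI was 1.34 and 1.03 in C7, 0.328 and 0.271 in C8, 0.477 and 0.627 in C9 and 2.17 and 2.51 in C11. The number of Csn2 UMIs per Csn1s1 UMI was 0.262 and 0.285 in C7 and 2.05 and 1.94 in C8. In each of these ratios the mice of C7 and C8 lay apart. The authors' clusters were made from these transcripts, so differences between clusters are descriptions and carry no test.

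**Figure D2:**
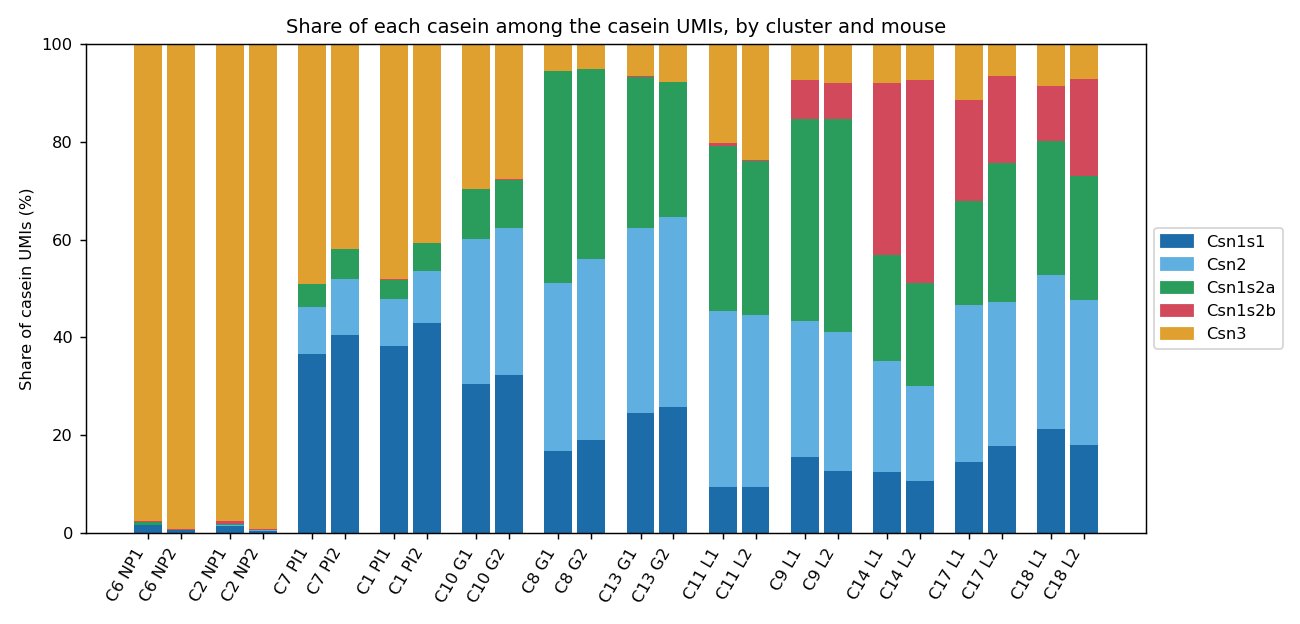
Share of each of the 5 caseins among the casein UMIs of a sum (percent), with 1 bar per mouse and cluster. Csn3 fills the bars of C6, Csn3 and Csn1s1 those of C7 and C1, and Csn1s2a and Csn2 those of C8, C9 and C11; Csn1s2b is a visible part in C9 and the largest part in C14.

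Whether caseins stay high after a pregnancy was asked by comparing PI with NP mice within a cell type. UMIs were summed per mouse over luminal progenitors (C6 and C7), and every gene past a filter on low counts was tested by edgeR's quasi-likelihood method, the p-values being adjusted over those genes (Benjamini-Hochberg). All 5 caseins rose in PI, in a comparison that called 13.9% of 10766 genes higher and 13% lower. Csn1s1 was at 11.8 and 7.45 CPM in the NP mice and 4843 and 5870 CPM in the PI mice (log2 fold change 9.17, SE 0.27, adjusted p = 7.26e-09). Csn2 was at 0.604 and 0.414 CPM, which were 2 and 1 UMIs, against 1271 and 1672 CPM (11.48, SE 0.33, adjusted p = 7.26e-09). The filter asks for its minimum in 2 sums, so a gene can pass it through 1 stage alone. Csn2, Csn1s2a and Csn1s2b passed it through the PI mice, as at most 1 NP mouse reached the minimum. Here and below, the direction of such a gene was set by the filter. Csn1s2a was at 5.13 and 0.828 CPM against 614 and 884 CPM (7.91, SE 0.36, adjusted p = 2.77e-07), and its change was 9.84 without NP1 and 7.29 without NP2. Csn3 was at 743 and 1414 CPM against 6500 and 6068 CPM (2.62, SE 0.27, adjusted p = 6.06e-05). Csn1s2b was at 1.51 and 2.90 CPM against 10.9 and 9.22 CPM (2.32, SE 0.38, adjusted p = 0.00123). For each of the 5 genes both PI mice stood above both NP mice. This is a description, as the share of all genes set apart in this way is not given here. With 2 mice against 2, an exact permutation test of a single value cannot go below p = 0.333, so the p-values rest on the spread shared over all genes. The labels give each sample as a separate mouse.

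The hormone-sensing progenitors showed the same direction. In C1 and C2 together, 4 of the 5 caseins passed the filter on low counts and all 4 rose, where 9.58% of 10692 genes rose and 7.05% fell. Of the 4, Csn1s1, Csn2 and Csn1s2a passed it through the PI mice. Csn1s1 went from 2.90 and 1.44 to 2513 and 3128 CPM (log2 fold change 10.24, SE 0.31, adjusted p = 2.18e-09), and 10.85 without NP1. Csn2 went from 0.386 and 0.289 to 627 and 760 CPM (10.84, SE 0.30, adjusted p = 1.49e-09). Csn1s2a went from 0.386 and 0.578 to 267 and 424 CPM, and Csn3 from 188 and 332 to 3170 and 2951 CPM, with changes of 9.46 and 3.54. Csn1s2b had 0.966 and 0.289 CPM in NP and 1.54 and 6.14 CPM in PI and was not tested. The change in luminal progenitors less that in hormone-sensing progenitors, tested as an interaction with the mouse as a term, was −1.05 for Csn1s1, 0.69 for Csn2, −1.51 for Csn1s2a, −0.27 for Csn1s2b and −0.84 for Csn3. With edgeR's quasi-likelihood test 0 of the 5 passed at an adjusted p under 0.05, where 1.73% of genes had a positive and 0.927% a negative difference. The differences in Csn1s1 and Csn3 had an unadjusted p under 0.05 (0.045 and 0.00447), and DESeq2 also called 0.

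Differentiated hormone-sensing cells gave smaller values. Csn1s1 stood at 0.470 and 0.412 CPM in NP and 27.7 and 43.5 CPM in PI (log2 fold change 6.31), Csn2 at 0.157 and 0.412 against 6.57 and 9.22 CPM (4.73), Csn1s2a at 0.235 and 0.618 against 3.84 and 3.67 CPM (3.01) and Csn3 at 12.999 and 9.89 against 33.4 and 26.7 CPM (1.31). All 4 rose, where 7.64% of genes rose and 6.65% fell. Csn1s1, Csn2 and Csn1s2a passed the filter on low counts through the PI mice, so their direction was set by it. Csn3 passed it in both stages. Without NP2 the changes of Csn2 and Csn1s2a were 5.60 and 3.92. In CPM, none of the 4 stood above the basal cells of the same PI mice. In UMIs per cell, C3 of PI1 was above them for Csn1s1 (0.235 against 0.179) and Csn2 (0.0558 against 0.0357), and C3 of PI2 for none. After the basal level was subtracted no casein was left to test in these cells. In basal cells, Csn1s1 (3.35), Csn1s2a (3.14) and Csn3 (0.89) rose from NP to PI, where 4.74% of genes rose and 2.69% fell. Here Csn1s1 and Csn1s2a passed the filter through the PI mice. The basal Csn1s1 value of NP1 was 8.93 CPM, 38 UMIs held by 0.397% of 504 cells, while NP2 had 0, and the Csn1s1 change was 8.56 without NP1 and 2.64, no longer called, without NP2. DESeq2 called 0 of the basal caseins. Markers of other cells differed in C12 of the PI mice, which hold 27 and 53 cells: the immune sum was 851 CPM in PI1 against 88.8 and 71.4 in the NP mice, and in PI2 the hormone-sensing sum was 754 CPM against 227 and 259 and the luminal sum 4629 CPM against 3665 and 2341. Their part in these values, and in the basal level set beside C7, C1 and C3, was not tested. The change in luminal progenitors exceeded that in differentiated hormone-sensing cells by 3.05 for Csn1s1, 6.80 for Csn2, 5.18 for Csn1s2a and 1.41 for Csn3 on the log2 scale, and that in basal cells by 6.06, 6.24, 5.06 and 2.08, all at an adjusted p under 0.05. Without the mouse term, the Csn1s1 difference from hormone-sensing cells and the Csn2 difference from basal cells did not pass. Of all genes, 10.3% had a positive and 7.47% a negative difference from hormone-sensing cells, and 5.99% and 1.9% from basal cells. Against hormone-sensing cells, the Csn2 difference was 7.73 without NP1 and 5.85 without NP2, the Csn1s2a difference 7.60 without NP1 and 3.60, not called, without NP2, and the Csn3 difference 2.06 without NP2. Against basal cells, leaving out NP1 gave −1.36 for Csn1s1 and 6.98 for Csn2, neither called, and 1.28 for Csn3, which was 2.73 without NP2. The Csn2 difference was 7.02 without PI2.

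**Figure D3:**
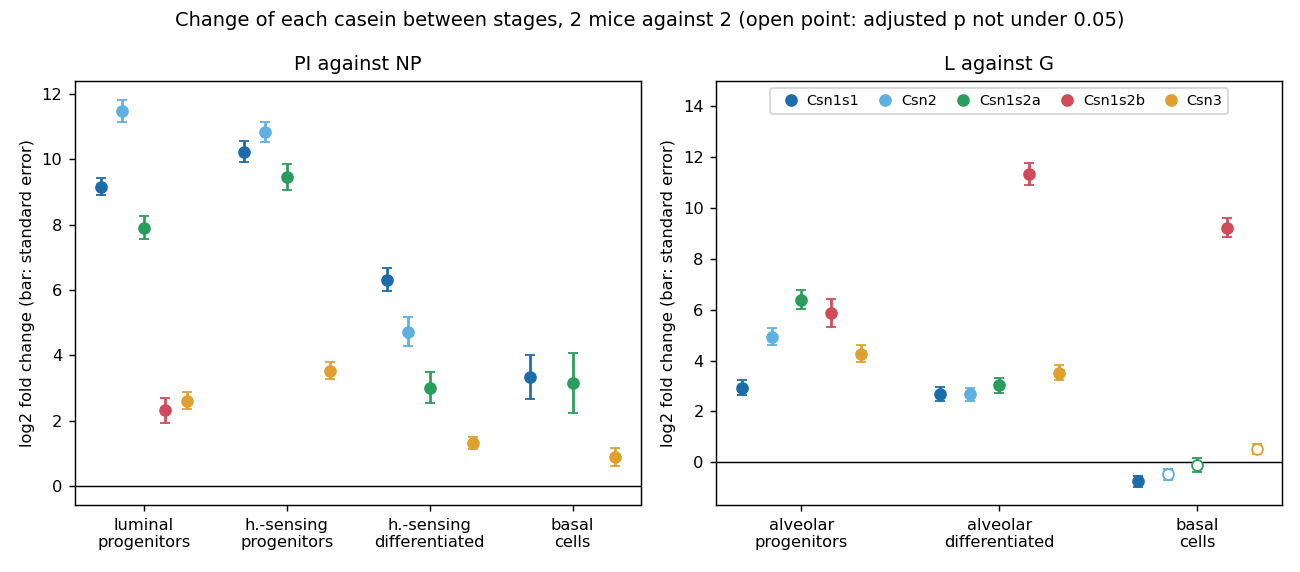
Log2 fold change of each casein from NP to PI and from G to L in each cell type, with 1 point per fit, bars of 1 SE and open points for an adjusted p not under 0.05. For each gene tested in all 4 cell types, the PI changes in both progenitor types lie above those in differentiated hormone-sensing and basal cells, and the largest change of lactation is that of Csn1s2b in differentiated alveolar cells, 11.36.

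The PI levels came from nearly every progenitor cell and not from a few. The median C7 cell of PI1 held 84.5 casein UMIs (10th to 90th percentile 23 to 263) and that of PI2 79 (26 to 224), and 0.243% and 0% of C7 cells had none. The median C6 cell of the NP mice held 4 and 6. In C1 the medians were 80 and 65, in cells with medians of 16314 and 11580 UMIs against 6483.5 and 5579 in C7. After thinning to 1000 UMIs, 87.1% (84.7 to 89.3) and 92.3% (90.5 to 93.8) of C7 cells and 77.6% (68.5 to 85.1) and 78.7% (74.3 to 82.7) of C1 cells had a Csn1s1 UMI, against 1.46% (0.536 to 3.14) and 3.82% (3.10 to 4.65) of C3 cells. Csn2 was seen in 51.6% and 62.0% of thinned C7 cells and Csn1s2a in 36.0% and 43.8%. Csn1s2b was seen in 0.850% and 0.908%.

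**Figure D4:**
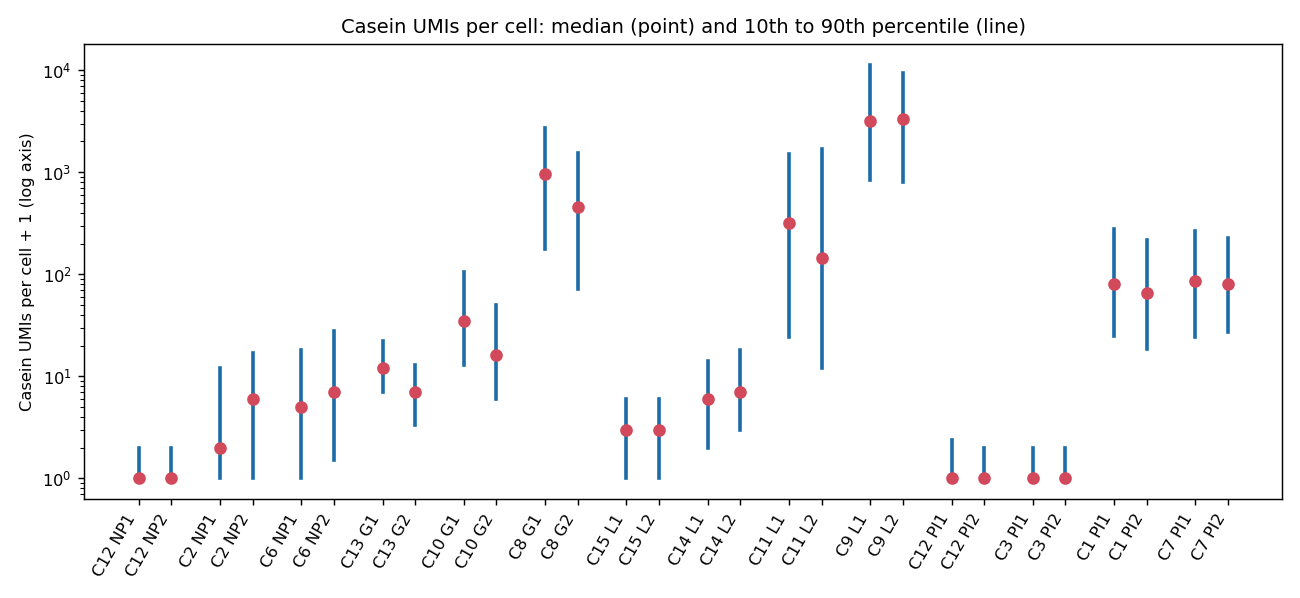
Casein UMIs per cell plus 1 (log axis) by mouse and cluster, with the median as a point and the 10th to 90th percentile as a line. C7 and C1 of the PI mice, with medians of 65 to 84.5 UMIs, lie above C12 of the same mice, and C8 and C9 have the highest medians.

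From pregnancy to lactation all 5 caseins rose in differentiated alveolar cells (C8 and C9). That comparison called 9.54% of 11860 genes higher and 9.17% lower, with a median change of −0.14 over all genes. The summed basal markers were also higher in C9 (2067 and 903 CPM) than in C8 (131 and 123 CPM), and their part in the changes was not tested. Csn1s2b went from 21.7 and 11.9 CPM in G to 27610 and 20405 CPM in L (log2 fold change 11.36, SE 0.43, adjusted p = 4.13e-09), and 12.08 without G1. Csn3 went from 4958 and 2836 to 25735 and 22643 CPM (3.52, SE 0.30, adjusted p = 4.56e-06), and 4.20 without G1. Csn1s2a went from 39297 and 21270 to 142718 and 123405 CPM (3.02, SE 0.31, adjusted p = 2.24e-05), and 3.76 without G1. Csn1s1 went from 15128 and 10458 to 53937 and 36192 CPM (2.70, SE 0.28, adjusted p = 2.28e-05), and Csn2 from 31078 and 20282 to 96085 and 80138 CPM (2.67, SE 0.27, adjusted p = 2.16e-05). Both L mice lay above both G mice for every casein, and G1 lay above G2 for every casein. The share of all genes ordered in this way is not given here. The CPM are shares of a total that caseins themselves fill: caseins were 34.9% and 28.3% of all UMIs in C9. The fold changes use totals scaled by edgeR's TMM factors, 1.331 and 1.401 in G1 and G2 and 0.759 and 0.707 in L1 and L2. They are therefore larger than the ratios of the CPM printed beside them. With caseins and the other milk protein genes left out of the total, mean C9 levels were 83100 CPM for Csn1s1, 162017 for Csn2, 244688 for Csn1s2a, 44287 for Csn1s2b and 44453 for Csn3.

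Alveolar progenitors (C10 and C11) also rose in all 5, where 15.7% of 8446 genes rose and 12.3% fell. Csn1s1 went from 1220 and 646 to 6373 and 5355 CPM (2.94), Csn2 from 1188 and 605 to 24984 and 19974 CPM (4.94), Csn1s2a from 403 and 196 to 23255 and 17765 CPM (6.39), Csn1s2b from 6.89 and 4.99 to 409 and 150 CPM (5.86), and Csn3 from 1182 and 553 to 13905 and 13447 CPM (4.26). No mouse of one stage reached the other, and the share of all genes set apart in this way is not given here. The Csn1s2b change was 4.93 without L1, the Csn1s2a change 6.98 and the Csn3 change 4.89 without G1. In UMIs per cell, Csn1s2b had a mean of 2.35 in C11, against 2.34 and 3.64 in the basal cells of L1 and L2. The summed basal markers were higher in C11 (4785 and 3422 CPM) than in C10 (162 and 221 CPM). Csn1s2b passed the filter on low counts through the L mice. After the basal level of the same mouse was subtracted, it no longer passed the filter and had no fit. That fit held 8445 genes in place of 8446. The part of basal cells in the Csn1s2b change was not tested. The 2 types of alveolar cell differed in which casein moved most. The change in differentiated cells less that in progenitors was 5.65 for Csn1s2b and −3.31, −2.24 and −0.71 for Csn1s2a, Csn2 and Csn3, all at an adjusted p under 0.05, where 1.28% of genes had a positive and 1.86% a negative difference. It was −0.22 for Csn1s1, which did not pass. The Csn3 difference did not pass without the mouse term, without G1 or without G2, and the Csn1s2b difference was 6.32 without L1. In CPM, Csn1s2a of C10 (403 and 196) lay below the basal cells of the same G mice (522 and 251). In UMIs per cell its C10 mean was 4.21, against 3.93 and 1.85 in those basal cells. After the basal free RNA was subtracted, Csn1s2a was 3.87% of the casein UMIs of C10 in place of 9.93%, and Csn3 35.3% in place of 28.6%. The part of free RNA in the Csn1s2a change and in the differences above was not tested.

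Basal cells carried casein UMIs in G and L. From NP to G, Csn1s1, Csn2, Csn1s2a and Csn3 rose in them, where 24.3% of genes rose and 21.9% fell. All of these but Csn3 passed the filter on low counts through the G mice. Csn2 went from 0.235 and 0.455 CPM in NP to 633 and 352 CPM in G. The immune, stromal and endothelial cells (C17 to C19) of the same G mice were at 615 and 485 CPM of Csn2. In both, G1 lay above G2, as in C8. From G to L the basal levels of Csn2 (333 and 322 CPM in L), Csn1s2a (317 and 343 CPM) and Csn3 (118 and 122 CPM) had changes of −0.48, −0.11 and 0.52 that did not pass the test. Csn1s1 fell, from 411 and 235 to 183 and 173 CPM (−0.75, adjusted p = 0.0225), a call that was lost without G1, while Csn1s2a had 0.49 without G1.

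Csn1s2b had another pattern in basal cells, where it passed the filter on low counts through the L mice. It rose from 2.01 and 0.224 CPM in G (8 and 1 UMIs) to 513 and 679 CPM in L (log2 fold change 9.22, SE 0.38, adjusted p = 3.68e-06), where 24.2% of 12720 genes rose and 24% fell, and by 11.41 without G1 and 8.31 without G2. It made up 38.3% ± 4.53 of the casein UMIs of C14, against 7.61% ± 0.527 in C9. To set Csn1s2b beside another milk gene, both were divided by the other caseins. For Wap, the whey acidic protein, UMIs per UMI of the other 4 caseins were 0.286 and 0.388 in C9, 0.339 and 0.409 in C14 and 0.214 to 0.366 in C15 and C17 to C19. C11 had 0.00340 and 0.0118. Csn1s2b UMIs per UMI of the other 4 caseins were 0.0867 and 0.0780 in C9, 0.540 and 0.708 in C14, 0.196 and 0.241 in C15, and 0.129 to 0.262 in C17 to C19. C14 was thus above C9 in both L mice, and C15 and C17 to C19 lay between them. C11 had 0.00599 and 0.00265.

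The Csn1s2b UMIs of C14 were spread over its cells. After thinning, 35.5% (34.2 to 36.9) and 39.6% (37.9 to 41.3) of C14 cells had a Csn1s2b UMI, against 10.2% (6.45 to 15.2) and 10.5% (3.96 to 21.5) in C15 of the same mice, and 18.9% (13.8 to 24.8) and 9.62% (5.48 to 15.4) in C17. For Csn1s2a the shares were 27.0% and 26.1% in C14 and 19.5% and 10.5% in C15. Among C14 cells with 0 to 2 UMIs of the other caseins, 62.0% of 1678 and 64.7% of 1033 cells had a Csn1s2b UMI, at a median depth of 2827 and 3176 UMIs. In C15 and C17 to C19, cells in that range of casein UMIs had one in 21.0% to 35.1%, at median depths of 2653 to 4196 UMIs. C14 held 38.9% and 42.1% of all Csn1s2b UMIs of L1 and L2, with 4637 and 3104 cells. Whether C14 cells made this RNA, and the part of free RNA in it, was not tested. The change of Csn1s2b in differentiated alveolar cells exceeded that in basal cells by 2.11, which did not pass the test (adjusted p = 0.0827) and was 0.50 without G1, while Csn1s1, Csn2, Csn1s2a and Csn3 exceeded it by 3.41, 3.12, 3.11 and 3.04, which did. Of all genes, 9.92% had such a positive and 9.41% a negative difference.

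**Figure D5:**
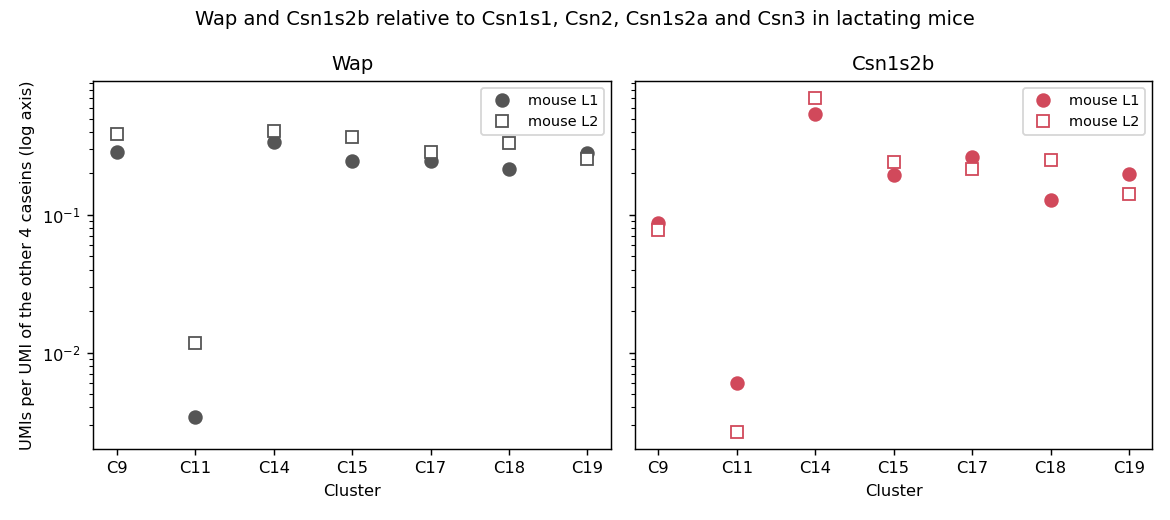
Wap (left) and Csn1s2b (right) UMIs per UMI of the other 4 caseins (log axis) in clusters of the lactating mice, with 1 point per mouse. For Wap all clusters but C11 lie between 0.214 and 0.409, whereas for Csn1s2b C14 stands at 0.540 and 0.708 and C9 at 0.0867 and 0.0780.

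Within C9, Csn1s2b was found in fewer cells than the other caseins. Each of the other 4 was found in 100% of C9 cells, and Csn1s2b in 85.7% and 93.6%. The median cell held 21.5 and 48 Csn1s2b UMIs, in a range of 0 to 2675 in L1 and 0 to 5992 in L2. The 5 cells with most of it held 63.3% and 69.0% of its UMIs. For each other gene, the 5 cells with most of that gene held 50.4% and 42.1% of the Wap UMIs, 41.9% and 40.0% of the Csn1s1 UMIs and 31.5% and 29.2% of the Csn1s2a UMIs. These shares are a description. The C9 level of Csn1s2b thus rests mostly on 5 cells per mouse.

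The pattern of each casein was compared with that of 7677 genes over 51 sums by mouse and cluster, as the Pearson correlation of log2(CPM + 1). The sums share mice, depth and free RNA, and no p is given. Csn2 and Csn1s2a were the most alike pair (r = 0.987), and Csn1s1 followed with 0.960 to Csn2 and 0.937 to Csn1s2a. Csn3 correlated with Csn1s1 at 0.741, and Csn1s2b with the other 4 at 0.499 to 0.672. Outside the family, the first gene was Fads1, a fatty acid desaturase, for Csn1s1 (0.739) and Glycam1, a secreted milk mucin, for Csn2 (0.825) and Csn1s2a (0.862). Thrsp, which acts in fat synthesis, came next for those 2 (0.793 and 0.825). For Csn1s2b it was Wap (0.918), then Lep (leptin, 0.791), Lao1 (0.791), Pip (prolactin-inducible protein, 0.775) and Orm1 (0.771). For Csn3 it was Btn1a1, butyrophilin of the milk fat globule (0.928), then BC016548 (0.927), Wfdc3 (0.892), Trf (transferrin, 0.891) and Elf5 (0.884).

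Other milk protein genes also rose. Of a list of 10, all 8 that were tested rose in luminal progenitors from NP to PI, with a median change of 3.13 against −0.02 over all genes. They included Trf (3.17, from 1171 ± 0.143 CPM in C6 to 10094 ± 1550 in C7), Btn1a1 (2.71), the milk lipase Cel (4.74), Wap (5.78) and Lalba (3.11), the alpha-lactalbumin that drives lactose synthesis. Wap reached 10.4 ± 3.59 CPM in C7, against 96865 ± 7227 CPM in C9. In hormone-sensing progenitors 8 of 8 tested rose as well (median 3.47), and in differentiated hormone-sensing cells 3 of 6. Over all genes the shares called higher were 13.9%, 9.58% and 7.64% in these 3 comparisons. From G to L, 9 of 10 rose in differentiated alveolar cells (median 4.31), among them Wap (9.47), Ltf, the lactotransferrin (7.84), Lao1, an amino acid oxidase (7.80), and Lalba (7.78); Muc15 had 0.03 and did not pass. In alveolar progenitors 9 of 9 tested rose. Of all genes, 9.54% and 15.7% rose in these comparisons.

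Among 15 regulators of casein genes the changes were smaller. In luminal progenitors 6 of 15 rose from NP to PI and 0 fell (median 0.37): Elf5 by 1.41, Stat5a by 0.96, Gata3 by 0.88, Cebpb by 0.70, Yy1 by 0.44 and Ehf by 0.41. The prolactin receptor Prlr had 0.03 and did not pass. Elf5 went from 65.4 ± 16.1 CPM in C6 to 165 ± 20.7 in C7, with 456 ± 55.5 in C8, 475 ± 9.19 in C9 and 682 ± 63.6 in C11. In hormone-sensing progenitors 5 of 15 rose, again with Elf5 (1.92) and Cebpb (1.06). In differentiated alveolar cells 2 of 15 rose from G to L, Cebpb (1.48) and Elf5 (0.96), and 5 fell: Ehf (−1.37), Yy1 (−1.16), Nfia (−0.88), Ybx1 (−0.74) and Nfib (−0.67). Stat5a had 0.04 there. In alveolar progenitors 5 rose, Cebpb (2.22), Elf5 (1.81), Prlr (1.07), Socs2 (0.94) and Gata3 (0.78), and Yy1 fell. Over all genes 13.9% and 9.58% rose in the progenitor comparisons from NP to PI, and from G to L 9.54% rose and 9.17% fell in differentiated alveolar cells and 15.7% rose and 12.3% fell in alveolar progenitors. The 2 of 15 higher in differentiated cells are near the share of all genes and are not read as a result about the list.

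The genes that phosphorylate caseins and load the secretory pathway with calcium and phosphate are a list of 10. In differentiated alveolar cells 7 of 10 rose from G to L and 0 fell, with a median of 1.36 against −0.14 over all genes: the plasma membrane calcium pump Atp2b2 (8.36), the phosphate transporter Slc34a2 (6.25), the Golgi calcium pumps Atp2c2 (3.74) and Atp2c1 (1.36), the calcium channel Orai1 (2.39), the Golgi casein kinase Fam20c (1.35) and its partner Fam20a (0.93). In luminal progenitors 6 of 9 tested rose from NP to PI, with Atp2c2 (3.11), Slc34a2 (2.07) and Fam20c (1.17) among them, and Atp2b1 fell (−1.05). Hormone-sensing progenitors had 3 of 8 higher and 1 lower, and Fam20c did not pass there (−0.26). Alveolar progenitors had 4 of 8 higher, with Atp2c2 (4.94), Fam20a (3.52), Orai1 (3.02) and Atp2a2 (0.89). The shares of all genes called higher were 9.54%, 13.9%, 9.58% and 15.7% in the order of these 4 cell types, and those called lower 9.17%, 13%, 7.05% and 12.3%.

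The genes between and beside the caseins on chromosome 5 did not share their levels. The count table held 20 such genes within the cluster or 250 kb of it, 9 of them without a UMI in any sum and 0 at or above 50 CPM. The highest value was 16.2 CPM, for Sult1d1. In luminal progenitors, both hormone-sensing types, alveolar progenitors and the other basal comparisons 0 of 20 passed the filter on low counts. In differentiated alveolar cells Sult1d1 alone was tested and did not pass (1.33). In basal cells Odam (−4.00) and Smr3a (−2.92) fell from G to L, where 24% of all genes fell. These 2 genes had 42 and 41 UMIs over all sums and at most 2.21 and 4.30 CPM, so their changes rest on few UMIs.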

How the data were processed

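Single-cell RNA-seq of sorted EpCAM+ mammary cells was deposited by the authors as 1 matrix of raw UMI counts per mouse, 2 mice at each of 4 stages, with a table of cells holding cluster labels and quality control flags. Per the labels and methods, reads were aligned with STAR to mm10 and counted with Cell Ranger; versions are not given in the sources used here. The deposited cell table also gave the authors' UMI count per cell, which differed by at most 5 UMIs in 1096 cells, and the mitochondrial fraction, computed by the authors as a share of a cell's UMIs; neither entered a result. Cells that passed the authors' quality control were used, and the doublet cluster C20 was left out of all comparisons. A joined table of the 8 libraries was not used.

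UMIs were summed per mouse and cluster or cell type (20 or more cells), expressed as CPM, and tested with edgeR 4.0.16 (R 4.3.3; TMM, filterByExpr with a minimum count of 10, quasi-likelihood test, adjusted p under 0.05). The CPM given are not scaled by the TMM factors, whereas the fold changes are. Differences between cell types were tested as interactions with the mouse as a term. Shares carry exact (Clopper-Pearson) 95% intervals. For shares of cells, each cell was thinned to 1000 UMIs. The scripts were tested on simulated data. Alternatives were DESeq2 1.42.0, no filter, glmTreat, other cells of each type, subtraction of free RNA, milk genes left out of the library size, the replicate number as a block and leaving out each mouse. Levels, shares and patterns were computed with Python 3.11.15, numpy 2.4.6, scipy 1.17.1 and pandas 2.3.3 and drawn with matplotlib 3.10.9.

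The genes named are the 5 caseins, the lists of other milk proteins, casein regulators, phosphorylation and calcium genes and casein locus neighbours, and for each casein the 10 genes of most similar pattern. The members and lists were chosen with earlier results of these data known. Depth was 13785920 to 35711533 UMIs per mouse, so levels of 1 CPM in a sum rest on few UMIs.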

Additional observations from a re-analysis of the deposited data

Results flagged for a closer look

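Changes that differed between cell types under the same contrast are given here as values, with the test of the difference itself (edgeR's quasi-likelihood test of the interaction, with the mouse as a term, adjusted p under 0.05). From NP to PI, the log2 change in luminal progenitors less that in differentiated hormone-sensing cells was 3.05 for Csn1s1, 6.80 for Csn2, 5.18 for Csn1s2a and 1.41 for Csn3. Less that in basal cells it was 6.06 for Csn1s1, 6.24 for Csn2, 5.06 for Csn1s2a and 2.08 for Csn3, against a median of 0.36 over all genes. From G to L, the change in differentiated alveolar cells less that in alveolar progenitors was −2.24 for Csn2, −3.31 for Csn1s2a, 5.65 for Csn1s2b and −0.71 for Csn3. Less that in basal cells it was 3.41 for Csn1s1, 3.12 for Csn2, 3.11 for Csn1s2a and 3.04 for Csn3.

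Caseins were also present in cluster C20, which the authors call doublets and which no comparison used. Its 103 cells of G1 held 50380 casein CPM at a median of 12627 UMIs, and its 205 cells of G2 held 31750 CPM at 11121 UMIs, above the basal levels of 1679 and 909 CPM in the same mice and below those of C8. Csn1s2a, Csn2, Csn1s1 and Csn3 made up 42.0%, 35.7%, 16.99% and 5.33% of its casein UMIs in G1. In G2, Csn2 led with 39.4% over Csn1s2a with 35.9%, where C8 of G2 had 37.0% and 38.8%.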

How the results depend on the processing

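Of the counts of caseins called, 120 values under an alternative were within 1.5 times the main count and 18 were not. Of the single fold changes, 564 kept their direction and side of the threshold, 31 lost the call, 21 gained it and 6 changed sign. In differentiated hormone-sensing cells (4 caseins called) the study's own threshold, a fold of 2 at an adjusted p under 0.01 with glmTreat, called 2, and subtracting the basal free RNA left 0. In basal cells from NP to PI (3 called) DESeq2, no filter on low counts and glmTreat each called 0, and leaving out 1 mouse gave 0 to 3. In basal cells from G to L (2 called) DESeq2 and no filter each called 4, glmTreat 1, and leaving out 1 mouse 3 to 4. For the difference between luminal and hormone-sensing progenitors (0 called) no filter called 1, and leaving out 1 mouse 0 to 1. For that between luminal progenitors and basal cells (4 called) leaving out 1 mouse gave 1 to 4, with 1 when NP1 was left out. Of these, the causes were not tested.

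Sign changes came from leaving out 1 mouse. They ranged from −0.56 to 0.49 for Csn1s2a in basal cells from G to L, from −2.38 to 0.75 for Csn1s2a and −1.98 to 1.43 for Csn1s2b in luminal less hormone-sensing progenitors, and from −1.36 to 6.61 for Csn1s1 and −4.91 to 2.54 for Csn1s2b in luminal progenitors less basal cells.

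Mice with the same replicate number did not deviate together: the correlation of their deviations lay between −0.0512 and 0.0731, so the numbers do not pair the mice. With the replicate number as a block, 4 caseins in place of 2 were called in basal cells from G to L. The block also ended the calls for Csn3 in basal cells from NP to PI (0.93), Csn1s1 in luminal progenitors less differentiated hormone-sensing cells (2.93) and Csn3 in differentiated alveolar cells less progenitors (−0.70).

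Over all genes, 40 of 138 counts of calls moved by over 1.5 times. The main count and the range over alternatives were 2892 (231 to 3425) in luminal progenitors, 1778 (127 to 2315) and 1714 (121 to 2458) in hormone-sensing progenitors and differentiated cells, 2219 (342 to 2875) and 2368 (352 to 3018) in differentiated alveolar cells and progenitors, and 632 (18 to 891), 5114 (611 to 5406) and 6138 (760 to 6835) in basal cells for PI against NP, G against NP and L against G. For the differences between cell types they were 321 (76 to 520), 2145 (1096 to 2275), 954 (421 to 1002), 366 (132 to 521) and 2254 (1045 to 2471), in the order luminal progenitors less hormone-sensing progenitors, differentiated hormone-sensing cells and basal cells, then differentiated alveolar cells less alveolar progenitors and basal cells.

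The design has 2 mice per stage, C9 has 42 and 47 cells, and C12 of PI has 27 and 53. Each mouse has its own library, so mouse and library cannot be told apart. The labels name no preparation batch. The paper states that collection and processing of all stages were planned for the same time, and that libraries were pooled for sequencing.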

Other observations

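Csn2 and Csn1s1 had few UMIs in the nulliparous gland. In C6 of NP1 and NP2, Csn1s1 was found in 3 of 372 and 0 of 316 cells after thinning, which is 0.806% (exact 95% interval 0.167 to 2.34) and 0% (up to 1.16). The progenitor cluster C6 was mostly made of NP cells. Its 22 cells of PI1 held 132 CPM of Csn1s1 and 356 CPM of Csn3. C7 of the same mouse stood at 4939 and 6626 CPM, and C6 of NP1 at 743 CPM of Csn3.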
